A study of Mus musculus with 6 samples.

Results

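Genes of the distal nephron, collecting duct and urothelium were followed in whole embryonic mouse kidneys with deletion of Yap and Taz directed at the stroma. The set has 38 genes of the 24749 in the deposited table and was chosen by symbol, with earlier results of these data known, to cover the loop of Henle and distal tubule (13 genes), the ureteric trunk and collecting duct (15 genes) and the urothelium with its keratins (10 genes). All 38 were found in the table through their Ensembl identifiers. RNA was sequenced from dissected kidneys at stage E15.5 in 3 libraries of the genotype Foxd1cre; Yapc/c;Tazc/c, called knockout here, and in 3 wild-type libraries that are Cre negative. The c alleles of Yap and Taz (Taz is the gene Wwtr1) are flanked by loxP sites, and the Cre transgene is driven from Foxd1, so deletion is directed at the stromal lineage and not at the epithelia described here. The strain is mixed in both groups. The labels do not say whether the wild-type kidneys carry floxed alleles, or whether a library holds 1 embryo or several. The p-values therefore weigh the difference between genotypes against the spread between these libraries, and part of that spread may be technical.

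The epithelia of the kidney come from separate sources. The nephron, from podocyte to distal tubule, forms from mesenchymal progenitors, while the collecting duct, the renal pelvis lining and the ureter lining grow from the branching ureteric bud. In the thick ascending limb of the loop of Henle, sodium chloride is taken up by the transporter encoded by Slc12a1. The distal convoluted tubule uses the related transporter encoded by Slc12a3, and the collecting duct sets the final salt and water content through sodium channels (Scnn1a, Scnn1b, Scnn1g) and vasopressin-regulated water channels (Aqp2). The urothelium, which lines pelvis and ureter, is sealed by plaques of uroplakin proteins. Stromal cells lie between these tubules, and signals between stroma and epithelium are known to shape both.

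Levels are in FPKM, a fragment count divided by transcript length and scaled between libraries. The steps between the lowest values put the depth on this scale at about 12700000 to 15500000 fragments, which need not equal the number sequenced. Wwtr1 measured 13.5, 12.8 and 12.2 FPKM in knockout kidneys, against 20.2, 17.7 and 18.5 FPKM in wild-type kidneys, a log2 change of -0.51 (limma adjusted p = 0.0235, exact permutation p = 0.1, which 3 against 3 libraries cannot go below). Yap1 measured 48.7, 43.2 and 44.2 FPKM in knockout kidneys, against 45.5, 52.7 and 55.0 FPKM in wild-type kidneys, and was not called (adjusted p = 0.378, exact permutation p = 0.2). Wild-type library 3 lay farthest from the others of its group. Its root mean square log2 difference from the other wild-type libraries was 0.495 and 0.476, against 0.43 between wild-type libraries 1 and 2. Wild-type library 1 differed from the knockout libraries by 0.45 to 0.47, and wild-type library 3 by 0.46 to 0.49. Results are given with and without wild-type library 3, although 3 libraries cannot show which of them is unusual.

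None of the genes in the set passed the test over all genes. Of the 35 tested (a mean of at least 0.5 FPKM), limma called 0 (Benjamini-Hochberg adjusted p, threshold 0.05), while it called 0.734% of all 16899 genes tested. At an unadjusted p under 0.05, 10 of the 35 genes stood out (28.6%, against 16.1% of all genes tested), 8 of them higher in knockout kidneys (22.9%, against 9.14% of all genes tested) and 2 lower (5.71%, against 6.94%). The 8 were Calb1, Gata2, Epcam, Krt8, Krt18, Krt19, Upk1a and Elf3, and the 2 were Slc12a3 and Upk1b. In 11 genes (31.4%, against 24.3% of all genes tested) the libraries of the 2 genotypes did not overlap. The median log2 change was -0.15 in the loop and distal tubule, 0.04 in the collecting duct and trunk and 0.21 in the urothelium and keratins, beside -0.0020 over all genes tested. Since the RNA came from whole kidneys, fewer cells of a type and less RNA per cell cannot be told apart.

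**Figure D1:**
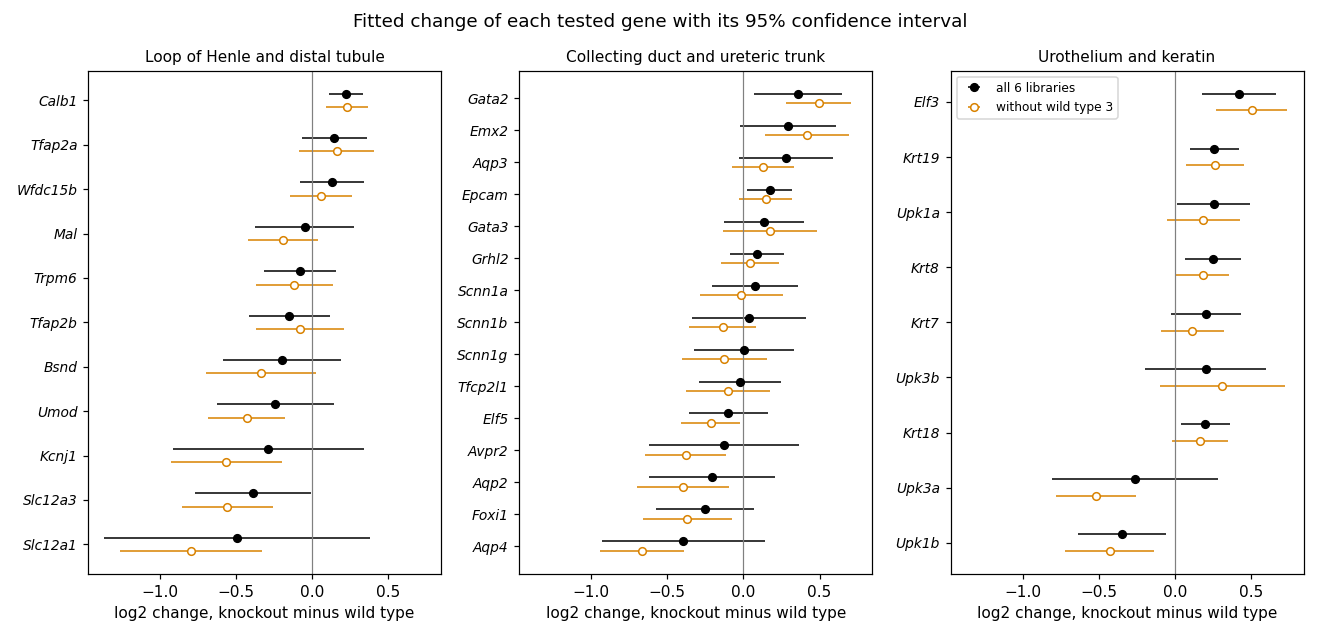
Fitted log2 change, knockout minus wild type, of the 35 tested genes, with 95% confidence intervals, from all 6 libraries (filled) and without wild-type library 3 (open); each panel is a segment and each row a gene. Slc12a1, Kcnj1, Aqp4 and Upk3a move farther below 0 without that library, while Calb1 and Krt19 stay near 0.2 and 0.3 in both fits.

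Levels differed widely between the genes of these segments at this stage. Per length, the most abundant were the simple epithelial keratins Krt18 (85.4 ± 6.58 FPKM in knockout and 74.1 ± 2.99 FPKM in wild-type kidneys, SD, n = 3 each) and Krt8, the calcium-binding protein gene Calb1, and Epcam, which encodes an adhesion protein of epithelia. Tfcp2l1, a transcription factor of the distal nephron and collecting duct, averaged 40.5 ± 5.81 FPKM in knockout and 41.0 ± 4.30 FPKM in wild-type kidneys (SD, n = 3 each). In wild-type kidneys Krt18 and Krt8 lay within their spread of each other, as did Calb1 and Krt8. Umod and Aqp2 lay below 2 FPKM in every library. The distal tubule gene Pvalb, encoding the calcium buffer parvalbumin, was listed at 0 in all 6 libraries. The uroplakin gene Upk2 measured 0, 0.105 and 0.610 FPKM in knockout kidneys, against 0.629, 0.378 and 0.300 FPKM in wild-type kidneys, which is at most about 10.3 fragments in a library. Sptssb, a subunit of the enzyme that starts sphingolipid synthesis, lay between 0.228 and 0.449 FPKM over the 6 libraries. These last 3 genes lay under the filter and were not tested.

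**Figure D2:**
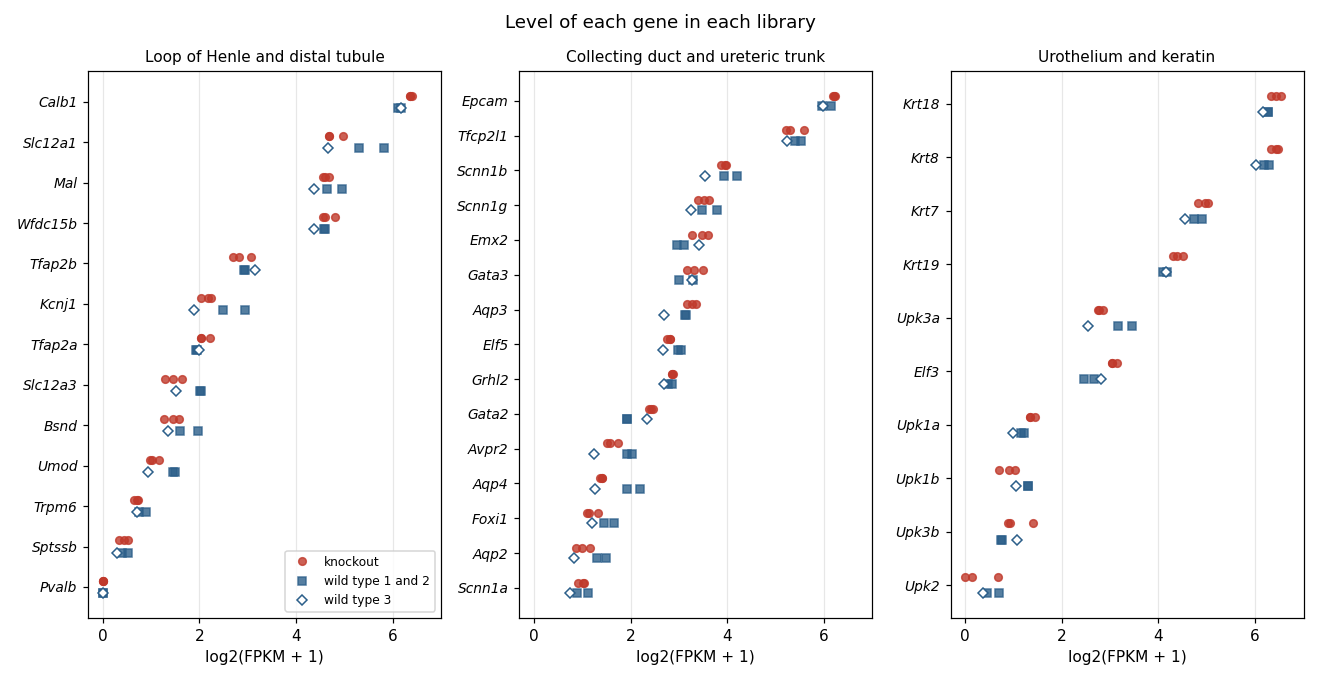
Level of each of the 38 genes as log2(FPKM + 1) in the 3 knockout libraries (circles, upper line of each row), wild-type libraries 1 and 2 (squares) and wild-type library 3 (open diamond), ordered by mean within each segment. Keratins, Calb1, Epcam and Tfcp2l1 lead, and Pvalb is at 0 throughout.

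In the loop of Henle and distal tubule, the transporter genes were low in all 3 knockout libraries and in wild-type library 3. Slc12a1 (chromosome 2, 125152505 to 125230002, GRCm38) had 30.2, 24.5 and 24.6 FPKM in knockout kidneys, against 55.8, 38.7 and 24.2 FPKM in wild-type kidneys. The groups overlapped through wild-type library 3, which was the lowest of all, while both other wild-type libraries lay above every knockout library. The log2 change was -0.50 with a 95% confidence interval from -1.37 to 0.38 (adjusted p = 0.525). Without wild-type library 3 it was -0.80 (interval -1.27 to -0.33, adjusted p = 0.122, with 0.119 to 0.747 over all alternatives), and the knockout mean was then 55.9% of wild type. Kcnj1, the potassium channel that recycles potassium to the lumen beside this transporter, had 3.75, 3.53 and 3.10 FPKM in knockout kidneys, against 6.73, 4.60 and 2.71 FPKM in wild-type kidneys. Its order of libraries was that of Slc12a1 among the wild-type kidneys, and its log2 change was -0.29 in all 6 libraries and -0.56 without wild-type library 3 (adjusted p = 0.631 and 0.127, with 0.125 to 0.957 over all alternatives). Umod, encoding uromodulin, the main secreted protein of the thick limb, had 1.24, 1.03 and 0.974 FPKM in knockout kidneys, against 1.84, 1.76 and 0.904 FPKM in wild-type kidneys. Its log2 change of -0.24 became -0.43 without wild-type library 3 (adjusted p = 0.502 and 0.114, with 0.114 to 0.765 over all alternatives). Umod rests on about 33.4 to 69.1 fragments a library.

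Slc12a3, the thiazide-sensitive transporter gene of the distal convoluted tubule (chromosome 8, 94329201 to 94366214), showed a similar order of libraries. It had 2.12, 1.46 and 1.73 FPKM in knockout kidneys, against 3.04, 3.07 and 1.86 FPKM in wild-type kidneys. Wild-type library 3 lay inside the knockout range and the other 2 lay above it. With all libraries the log2 change was -0.39 (SE 0.16, unadjusted p = 0.0461, adjusted p = 0.304). Without wild-type library 3 it was -0.56 (adjusted p = 0.0954, with 0.0954 to 0.547 over all alternatives). Bsnd, which encodes the barttin subunit of basolateral chloride channels, had a log2 change of -0.20 with all libraries and -0.34 without wild-type library 3. Trpm6, a magnesium channel gene of the distal convoluted tubule, had -0.08 and -0.12. For both, the 3 knockout libraries lay below wild-type libraries 1 and 2. Mal, encoding a membrane protein of apical transport, measured 23.4 ± 1.13 FPKM in knockout and 24.5 ± 5.04 FPKM in wild-type kidneys (SD, n = 3 each), with a log2 change of -0.05 and, without wild-type library 3, of -0.19.

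Other genes of the segment did not share that order of libraries. Calb1 (chromosome 4, 15881264 to 15908064), whose product calbindin marks both distal tubule and ureteric epithelium, had 81.5, 83.3 and 81.2 FPKM in knockout kidneys, against 68.2, 71.4 and 70.7 FPKM in wild-type kidneys. All knockout libraries lay above all wild-type libraries, and the spread within each group was small. Its log2 change of 0.22 (SE 0.05, interval 0.11 to 0.33) had the smallest p of the set (0.00184) and an adjusted p of 0.101, with 0.0685 to 0.322 over all alternatives. Without wild-type library 3 it was 0.23. Tfap2a, an AP-2 transcription factor gene, lay higher in all 3 knockout libraries (3.11, 3.67 and 3.12 FPKM, against 2.89, 2.79 and 2.99 FPKM in wild-type kidneys), with a log2 change of 0.14 (interval -0.07 to 0.36). Its relative Tfap2b, needed for the distal convoluted tubule in mice, overlapped between groups (log2 -0.15, interval -0.42 to 0.12, and -0.08 without wild-type library 3). Wfdc15b, a secreted WAP-domain protein gene, had a log2 change of 0.13 (interval -0.08 to 0.34) and of 0.05 without that library.

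**Figure D3:**
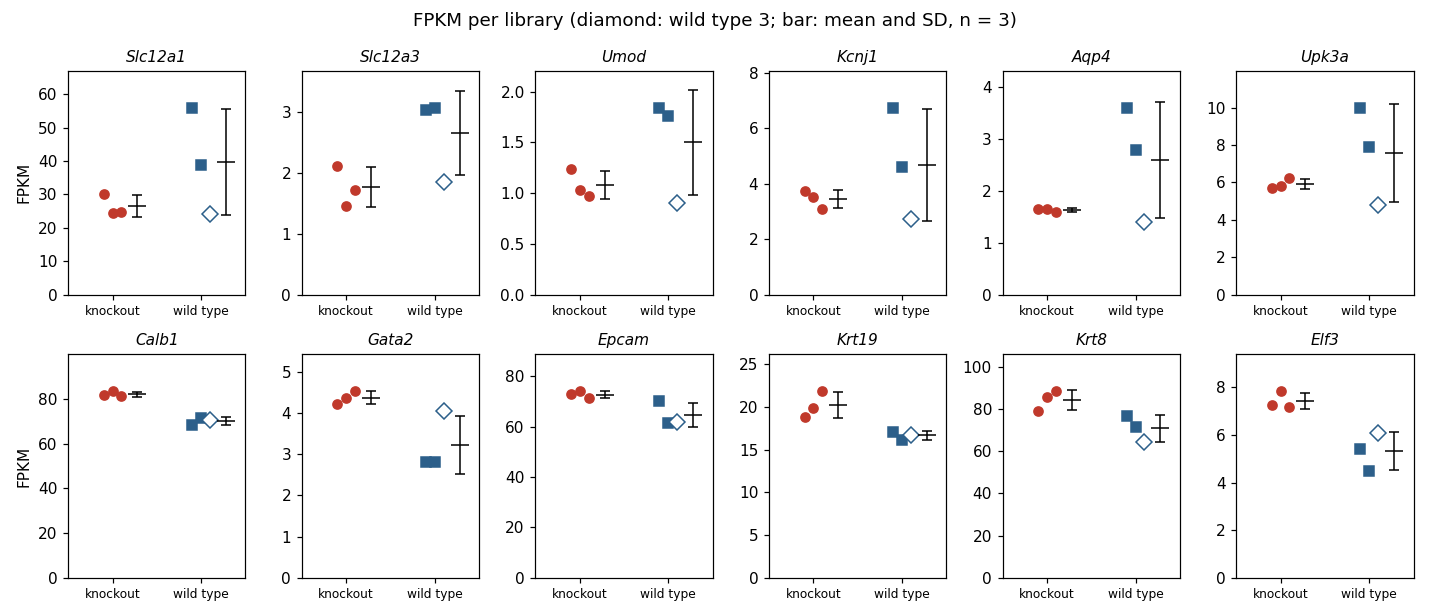
FPKM of 12 genes in each knockout library (circles) and in wild-type libraries 1 and 2 (squares) and 3 (open diamond), with mean and SD (n = 3) beside each group. In the top row wild-type library 3 lies below the knockout libraries, or inside their range for Slc12a3; in the bottom row the knockout libraries lie above every wild-type library.

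In the collecting duct and ureteric trunk, 0 of the 15 genes were called, and 2 (Gata2 and Epcam) had an unadjusted p under 0.05 (13.3%, against 16.1% of all genes tested). Aqp2, the apical water channel inserted under vasopressin, had 1.24, 0.996 and 0.826 FPKM in knockout kidneys, against 1.83, 1.48 and 0.785 FPKM in wild-type kidneys (log2 -0.21). Aqp4, a basolateral water channel of the duct, had 1.66, 1.65 and 1.60 FPKM in knockout kidneys, against 3.60, 2.80 and 1.39 FPKM in wild-type kidneys. In both genes wild-type library 3 was the lowest library and wild-type library 1 the highest. For Aqp4 the log2 change was -0.40 with all libraries and -0.67 without wild-type library 3 (adjusted p = 0.43 and 0.0623, with 0.0615 to 0.703 over all alternatives), where the knockout mean was 51.1% of wild type. For Aqp2 it was -0.40 without that library (interval -0.70 to -0.09). Avpr2, the vasopressin receptor gene, measured 2.05 ± 0.255 FPKM in knockout and 2.43 ± 0.935 FPKM in wild-type kidneys (SD, n = 3 each), with a log2 change of -0.13 and, without wild-type library 3, of -0.38. It overlaps exons of Arhgap4 on the opposite strand. Aqp3, which lets water leave through the basolateral side, had 8.59, 9.29 and 8.03 FPKM in knockout kidneys, against 7.68, 7.90 and 5.43 FPKM in wild-type kidneys, with no overlap (log2 0.28, interval -0.03 to 0.59). Its log2 change without wild-type library 3 was 0.13 (interval -0.08 to 0.33).

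The 3 subunits of the epithelial sodium channel gave no difference beyond the spread, and their intervals allow changes in either direction. Scnn1b had 14.7, 14.6 and 13.5 FPKM in knockout kidneys, against 17.3, 14.4 and 10.6 FPKM in wild-type kidneys (log2 0.04, interval -0.34 to 0.41). Scnn1g had 11.3, 10.5 and 9.53 FPKM in knockout kidneys, against 12.9, 10.1 and 8.45 FPKM in wild-type kidneys (log2 0.01, interval -0.32 to 0.33). Scnn1a had 1.05, 1.03 and 0.883 FPKM in knockout kidneys, against 0.858, 1.17 and 0.670 FPKM in wild-type kidneys (log2 0.07, interval -0.21 to 0.36). Per length, Scnn1a, whose subunit is needed for a working channel, had the lowest level of the 3 genes in each library, and wild-type library 3 was the lowest library for all 3 genes. Without it, all 3 log2 changes lay below 0, at -0.14, -0.13 and -0.01.

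Gata2, a zinc finger factor gene expressed in the ureteric lineage, had 4.21, 4.37 and 4.53 FPKM in knockout kidneys, against 2.81, 2.82 and 4.04 FPKM in wild-type kidneys. The knockout libraries lay above all wild-type libraries, of which library 3 was nearest. The log2 change was 0.36 (SE 0.12, unadjusted p = 0.0218, adjusted p = 0.235) and 0.49 without wild-type library 3 (adjusted p = 0.0662, with 0.0662 to 0.47 over all alternatives). Gata3, which controls growth of the ureteric bud, measured 9.09 ± 1.17 FPKM in knockout and 8.18 ± 0.964 FPKM in wild-type kidneys (SD, n = 3 each), with overlap. It shares exon sequence with gene models on both strands. Emx2, a homeobox gene needed in the ureteric bud, had 11.2, 8.65 and 10.1 FPKM in knockout kidneys, against 7.66, 6.75 and 9.64 FPKM in wild-type kidneys (log2 0.29, interval -0.02 to 0.61, and 0.42 without wild-type library 3). Its groups overlapped only through wild-type library 3, and Emx2os lies on the opposite strand. Epcam had 72.9, 74.1 and 71.4 FPKM in knockout kidneys, against 70.2, 61.5 and 62.0 FPKM in wild-type kidneys, with no overlap (log2 0.17, SE 0.06, unadjusted p = 0.0274, adjusted p = 0.254). Its interval without wild-type library 3, -0.03 to 0.32, included 0.

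Tfcp2l1 had a log2 change of -0.02 with all libraries and -0.10 without wild-type library 3. Grhl2, a factor of epithelial barrier genes, had 0.09 (interval -0.09 to 0.26) and 0.05. Foxi1, the factor that specifies acid-secreting intercalated cells, had 1.52, 1.20 and 1.13 FPKM in knockout kidneys, against 2.15, 1.75 and 1.31 FPKM in wild-type kidneys (log2 -0.25, interval -0.57 to 0.07, and -0.37 without wild-type library 3, interval -0.66 to -0.08). Elf5, an ETS factor gene of principal cells, had 5.71, 6.07 and 6.05 FPKM in knockout kidneys, against 7.25, 6.86 and 5.33 FPKM in wild-type kidneys (log2 -0.10, and -0.22 without that library). In Foxi1 and Elf5, as in Aqp2, wild-type libraries 1 and 2 lay above every knockout library.

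Among the keratins and urothelial genes, 6 of the 9 tested had an unadjusted p under 0.05 (66.7%, against 16.1% of all genes tested), 5 higher (55.6%, against 9.14%) and 1 lower (11.1%, against 6.94%), and 0 were called. Without wild-type library 3 this was 3 higher and 2 lower, since Krt18 and Upk1a no longer had such a p and Upk3a did. The keratins of simple epithelia lay above wild type in every knockout library or nearly so. Krt8 had 78.9, 85.8 and 88.4 FPKM in knockout kidneys, against 76.7, 71.5 and 64.2 FPKM in wild-type kidneys (log2 0.25, SE 0.08, adjusted p = 0.198). Its filament partner Krt18 had 79.1, 85.0 and 92.2 FPKM in knockout kidneys, against 75.9, 75.7 and 70.6 FPKM in wild-type kidneys (log2 0.20, SE 0.07, adjusted p = 0.229). Krt19 (chromosome 11, 100140810 to 100148665), a keratin of ductal epithelia, had 18.8, 19.9 and 21.8 FPKM in knockout kidneys, against 17.1, 16.1 and 16.8 FPKM in wild-type kidneys. None of these 3 genes overlapped between groups. For Krt19 the log2 change was 0.26 (SE 0.07, adjusted p = 0.155) and 0.27 without wild-type library 3. Krt7 overlapped, through wild-type library 1 (27.1, 30.1 and 31.8 FPKM in knockout kidneys, against 28.8, 25.8 and 22.4 FPKM in wild-type kidneys), with a log2 change of 0.21 and, without wild-type library 3, of 0.12.

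Elf3, an ETS factor gene of urothelium and other barrier epithelia (chromosome 1, 135253575 to 135258568), had 7.27, 7.83 and 7.17 FPKM in knockout kidneys, against 5.39, 4.50 and 6.07 FPKM in wild-type kidneys. The groups did not overlap. The log2 change of 0.42 (SE 0.11, interval 0.18 to 0.67, adjusted p = 0.145) was the largest positive log2 change of the set, and it was 0.51 without wild-type library 3 (adjusted p = 0.0769, with 0.0767 to 0.349 over all alternatives).

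The uroplakins did not share a direction, and none of those tested was called. Upk3a, the partner of Upk1b in the plaque, had 5.71, 5.79 and 6.24 FPKM in knockout kidneys, against 9.98, 7.92 and 4.79 FPKM in wild-type kidneys (log2 -0.26, interval -0.81 to 0.29). Wild-type library 3 was again the lowest library, and without it the log2 change was -0.52 (adjusted p = 0.0861, with 0.0846 to 0.926 over all alternatives). Upk1b, a tetraspanin of the plaque, had 1.04, 0.638 and 0.868 FPKM in knockout kidneys, against 1.47, 1.48 and 1.09 FPKM in wild-type kidneys, with no overlap (log2 -0.35, SE 0.12, adjusted p = 0.247). Upk1a, the other tetraspanin, had 1.52, 1.73 and 1.54 FPKM in knockout kidneys, against 1.23, 1.34 and 0.983 FPKM in wild-type kidneys, also with no overlap but in the opposite direction (log2 0.26, SE 0.10, adjusted p = 0.286). Both rest on few fragments, about 17.1 to 44.1 a library for Upk1b and about 18.7 to 34.1 for Upk1a. Upk3b, a relative of Upk3a also known from mesothelium, had 1.64, 0.897 and 0.839 FPKM in knockout kidneys, against 0.667, 0.706 and 1.12 FPKM in wild-type kidneys. Knockout library 1 was the highest, and the groups overlapped through wild-type library 3 (log2 0.20, interval -0.19 to 0.60). Without that library the groups did not overlap, and the log2 change was 0.31 (interval -0.10 to 0.72).

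Wild-type library 3 was the lowest of the 6 libraries in 19 of the 35 tested genes (54.3%), against 14.7% of all genes tested. It lay below both other wild-type libraries in 25 of the 35, against 34% of all genes tested. The genes below included 8 of 11 in the loop and distal tubule, 11 of 15 in the collecting duct and trunk and 6 of 9 among urothelial and keratin genes. Those not below included Calb1, Gata2, Gata3, Emx2, Epcam, Krt19 and Elf3. Wild-type library 1 lay on the other side of the mean in the loop and distal tubule. There the median log2 deviation was 0.31, 0.02 and -0.18 in wild-type libraries 1, 2 and 3. Over all alternatives the log2 change ranged from -0.82 to -0.21 for Slc12a1 and from -0.68 to -0.03 for Kcnj1. It ranged from -0.92 to -0.19 for Aqp4 and from -0.58 to -0.06 for Upk3a. Without wild-type library 3, chosen after its values were seen, limma called 0 of the 35 genes. Of all genes tested it called 0.87% (0.568% lower and 0.302% higher). At an unadjusted p under 0.05, 11 genes were lower in knockout kidneys (31.4%, against 8.21% of all genes tested) and 6 were higher (17.1%, against 11.1%). The 11 lower genes were Umod, Slc12a1, Kcnj1, Slc12a3, Aqp2, Aqp4, Avpr2, Foxi1, Elf5, Upk1b and Upk3a, and the 6 higher were Calb1, Gata2, Emx2, Krt8, Krt19 and Elf3. Groups did not overlap in 25 of the 35 genes (71.4%, against 39.4% of all genes tested with 3 libraries against 2), 13 of them lower and 12 higher, against 19.7% lower and 19.7% higher among all genes tested. The median of the collecting duct and trunk genes then lay at -0.10, on the other side of 0.

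**Figure D4:**
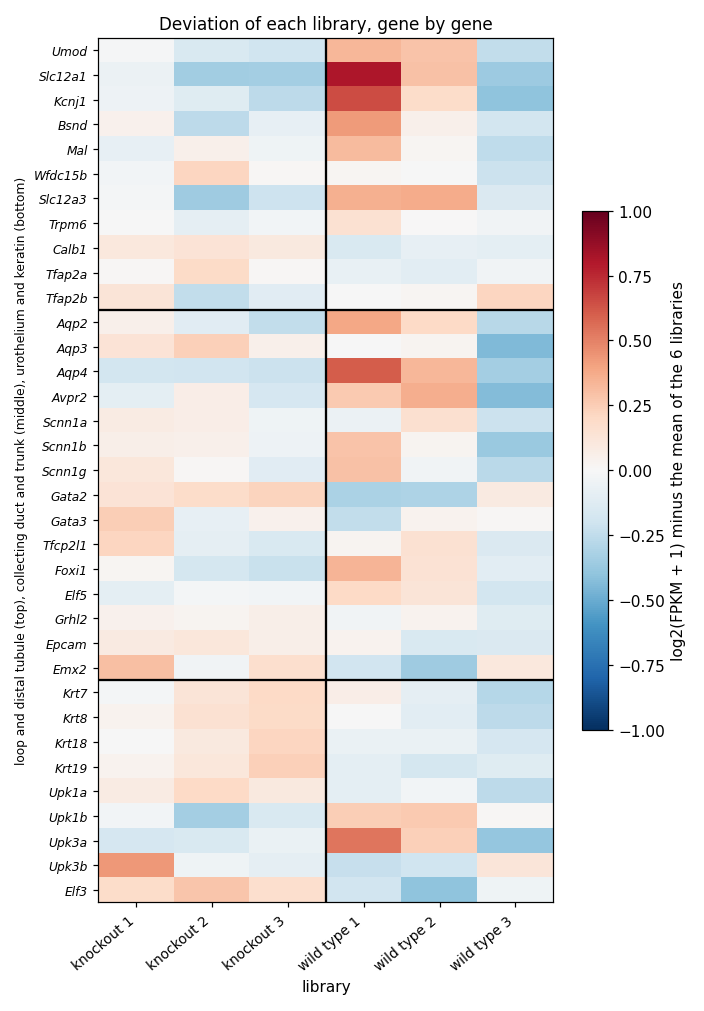
Deviation of each library from the mean of all 6 libraries, as log2(FPKM + 1), for the 35 tested genes, knockout libraries left and wild-type libraries right of the vertical line. Wild-type library 3 is below the mean in rows such as Slc12a1, Kcnj1, Aqp4 and Upk3a, where wild-type libraries 1 and 2 are above it.

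Markers of other cell types of the organ also differed between libraries, in different directions, and their part in these values was not tested. The 10 proximal tubule markers summed to 121, 102 and 110 FPKM in knockout kidneys, against 141, 126 and 76.9 FPKM in wild-type kidneys. All 9 tested members were lowest in wild-type library 3, the library that was also low in the thick limb and duct genes. The 8 nephron progenitor markers summed to between 157 and 166 FPKM in knockout and between 136 and 147 FPKM in wild-type kidneys, and the 8 ureteric tip markers to between 119 and 128 FPKM in knockout and between 101 and 109 FPKM in wild-type kidneys. Both of these sums were higher in knockout kidneys without overlap, as were Calb1, Epcam, Krt8, Krt18 and Krt19. The largest part of the nephron progenitor difference lay in Itga8 (52.0 FPKM in knockout and 39.3 FPKM in wild-type kidneys). Groups did not overlap in 3 of the 8 progenitor genes (37.5%) and 6 of the 8 tip genes (75%), against 24.3% of all genes tested. The 8 stromal markers summed to between 414 and 441 FPKM in knockout and between 542 and 588 FPKM in wild-type kidneys. The difference in this sum lay mainly in Col3a1 (178 FPKM in knockout and 275 FPKM in wild-type kidneys). Of the 8 stromal markers, 6 had a log2 change below 0 and 2, Aldh1a2 and Pdgfra, above 0. The 6 include Foxd1 (4.50 FPKM in knockout and 7.64 FPKM in wild-type kidneys), the gene from which Cre is driven. Cre is present in the knockout libraries only, so it differs between the groups together with Yap and Taz. The 15 markers of ureter mesenchyme and smooth muscle summed to between 150 and 164 FPKM in knockout and between 170 and 176 FPKM in wild-type kidneys. In the ureter mesenchyme list the difference in the sum lay mainly in Acta2 (19.3 FPKM in knockout and 35.2 FPKM in wild-type kidneys) and Tagln (9.76 FPKM in knockout and 18.5 FPKM in wild-type kidneys), which encode smooth muscle proteins and were both called lower. Tbx2, a factor gene of ureter mesenchyme, averaged 20.4 FPKM in knockout and 14.3 FPKM in wild-type kidneys and was called higher only without wild-type library 3, where Acta2 and Tagln were not called. The median log2 change of the list was -0.025, and 6 of its 15 genes were highest in wild-type library 3. No gene of these 5 lists was at 0 in any library.

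Related genes outside the set were read from lists by segment. Of 29 tested genes of the loop and distal tubule, limma called 0, and an unadjusted p under 0.05 was found for 3 higher genes and 1 lower gene (13.8%, against 16.1% of all genes tested). Ptger3, a prostaglandin receptor gene, had the smallest p (0.206, 0.299 and 0.323 FPKM in knockout kidneys, against 1.08, 0.896 and 2.04 FPKM in wild-type kidneys, log2 -0.84, adjusted p = 0.0975), followed by the nephron patterning factor Irx3 (log2 0.37, adjusted p = 0.145). Of 30 tested genes of the ureteric bud and collecting duct, limma called 0, while an unadjusted p under 0.05 was found for 16 higher and 0 lower genes (53.3% higher, against 9.14% of all genes tested). Their median log2 change was 0.23, beside 0.04 for the 15 collecting duct and trunk genes of the set. Fxyd4, a regulator of the sodium pump in the collecting duct, had 40.2, 41.1 and 39.4 FPKM in knockout kidneys, against 34.7, 30.6 and 31.1 FPKM in wild-type kidneys (log2 0.32, adjusted p = 0.0764). The tight junction gene Cldn7 had 35.9, 30.8 and 32.1 FPKM in knockout kidneys, against 15.9, 22.3 and 22.6 FPKM in wild-type kidneys (log2 0.69, adjusted p = 0.0983). Leaving out wild-type library 1 put both past the threshold, with adjusted p = 0.0421 for Fxyd4 (0.0421 to 0.290 over all alternatives) and 0.0458 for Cldn7 (0.0458 to 0.308). Without wild-type library 3, limma called the tight junction gene Cldn4 (log2 0.78, adjusted p = 0.00918, with 0.00837 to 0.372 over all alternatives). With all libraries it was not called (adjusted p = 0.172), and it was named after its values were seen. Of 5 tested genes of the urothelium, 0 were called, and the smallest p values belonged to Foxa1 (log2 0.39) and Krt23 (log2 0.26), both higher at an unadjusted p below the threshold. The keratin genes Krt5, Krt14 and Krt13 of this list were at 0 in at least 1 library each, as were Foxa2 and Psca, and were not tested. Trp63 and Krt20 also lay under the filter.

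Promoter sequences are shown for Umod, Slc12a1 and Slc12a3, whose knockout libraries all lay below wild-type libraries 1 and 2, and for Krt8 and Elf3, whose knockout libraries lay above every wild-type library. RefSeq windows on GRCm38.p6 were found for 30 of the 38 genes, in 34 windows. Each line gives, from 5′ to 3′ on the strand of the gene, the 250 bases before the RefSeq start. The regions are chr7:119479263-119479512 on the minus strand for Umod, chr2:125152350-125152599 on the plus strand for Slc12a1, chr8:94328958-94329207 on the plus strand for Slc12a3, chr15:102004343-102004592 on the minus strand for Krt8 and chr1:135258473-135258722 on the minus strand for Elf3. Some annotated transcripts start inside these windows. Capitals mark matches, on either strand, to GGAATG (TEAD), GCCNNNGGC (AP-2), AACCNGTT (GRHL), AGATAA (for the GATA factors) or the HNF1 motif, and no matches overlapped in these 5 windows.
Umod: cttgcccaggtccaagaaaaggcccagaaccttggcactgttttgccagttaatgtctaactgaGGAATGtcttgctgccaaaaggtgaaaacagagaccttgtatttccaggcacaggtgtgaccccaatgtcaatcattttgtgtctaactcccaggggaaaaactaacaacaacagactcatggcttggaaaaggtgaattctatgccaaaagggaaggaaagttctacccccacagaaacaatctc
Slc12a1: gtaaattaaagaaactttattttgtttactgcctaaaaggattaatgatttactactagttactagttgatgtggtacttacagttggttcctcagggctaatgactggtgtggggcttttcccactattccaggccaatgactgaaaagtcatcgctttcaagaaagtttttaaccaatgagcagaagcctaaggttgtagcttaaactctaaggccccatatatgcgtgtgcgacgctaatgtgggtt
Slc12a3: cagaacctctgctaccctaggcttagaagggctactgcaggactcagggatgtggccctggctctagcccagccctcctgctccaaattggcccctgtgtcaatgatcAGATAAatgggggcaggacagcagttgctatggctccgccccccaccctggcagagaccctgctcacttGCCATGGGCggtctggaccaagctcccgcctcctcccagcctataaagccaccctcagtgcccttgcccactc
Krt8: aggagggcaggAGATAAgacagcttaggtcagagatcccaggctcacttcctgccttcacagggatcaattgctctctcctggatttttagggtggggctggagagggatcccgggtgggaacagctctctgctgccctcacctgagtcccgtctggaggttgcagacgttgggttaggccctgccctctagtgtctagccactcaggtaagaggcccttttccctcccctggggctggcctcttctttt
Elf3: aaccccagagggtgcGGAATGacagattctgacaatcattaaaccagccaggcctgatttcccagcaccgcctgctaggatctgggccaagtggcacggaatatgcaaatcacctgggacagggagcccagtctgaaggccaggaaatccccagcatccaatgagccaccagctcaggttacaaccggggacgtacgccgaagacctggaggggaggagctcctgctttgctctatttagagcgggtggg
Umod and Elf3 each held a TEAD match, Slc12a3 held an AP-2 and a GATA match, Krt8 held a GATA match, and the Slc12a1 window held none of these letters. Over all windows of the set, GGAATG occurred in 6 of 34 (17.6%, against 12.6% of 32851 promoter windows), GCCNNNGGC in 10 (29.4%, against 13.7%), AGATAA in 4 (11.8%, against 9.99%), AACCNGTT in 1 (2.94%, against 1.79%) and the HNF1 motif in 0 (against 0.371%). A match describes these letters only and is not evidence of binding.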

How the data were processed

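RNA from whole kidneys was measured in 3 knockout and 3 wild-type libraries, grouped by title. The tools named by the submitters' processing notes are bcl2fastq 2.17.1.14 and Salmon, with the build GRCm38 (mm10). For Salmon, version, annotation and strand setting are not stated. The values the authors deposited are FPKM, and every column was used. The libraries were already on a common scale, since the median log2 ratio of a library to the geometric mean of each gene was 0.0038 in all of them. Symbols and positions came from GENCODE M21 (24469 identifiers with a symbol). FPKM values are not counts, so values were taken as log2(FPKM + 1), pseudocount 1, keeping genes whose mean reached 0.5 FPKM. The model, with genotype alone, was fitted with limma 3.58.1 (R 4.3.3) and its trend and robust options, and p-values were adjusted over all 16899 genes tested. Log2 changes are knockout minus wild type on this scale, which understates changes of low genes. The fit was tested on simulated data. Depth was approximated from genes with 1 transcript of at least 2 kb, taking the annotated length as the length quantified, and fragment numbers given for genes rest on it. Intervals cover the spread between libraries only. Strand is unknown, so genes with overlapping exons (Avpr2, Gata3, Emx2, Krt7, Krt8, Umod, Elf3, Tfap2a, Grhl2 and Tfcp2l1) may share reads with their neighbours.

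The genes, segments and lists were chosen with earlier results of these data known. Values in all libraries are given for the most abundant gene and the 3 smallest p of each segment, for genes with an unadjusted p under 0.05 and no overlap, and for the defining transporters and uroplakins, with others added after their values were seen. From each related list the 2 smallest p are named, and 1 related gene is not reported here. All 15 pairs of libraries differed in their values. Alternatives varied the filter, the pseudocount, the scaling, the moderation, the replicate block and each library in turn.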

Additional observations from a re-analysis of the deposited data

How the results depend on the processing

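In every alternative run, 0 of the tested genes of the set were called, and the smallest adjusted p of any was 0.0615 (Aqp4, pseudocount 0.1 without wild-type library 3, a setting chosen after seeing the data). The medians of the 3 segments were not computed for that setting and moved by less than the spread between replicates under every other alternative. That spread includes wild-type library 3 itself. Without that library the collecting duct and trunk median moved from 0.04 to -0.10, close to its spread of 0.145. Over all genes, 102 were called lower and 22 higher. With the replicate block these counts were 30 and 2. The labels do not say whether same-numbered libraries share more than the number. Same-numbered libraries deviated with correlations of 0.0238, -0.0422 and 0.0504, and not every library correlated best with its own number. These values cannot settle whether they share a preparation. The higher count was 12 when rescaled to equal sums and 12 without the trend option. When 1 library was left out, the lower count ranged from 45 to 96 and the higher count from 7 to 51, with wild-type library 3 left out giving 96 and 51.

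The direction changed under at least 1 alternative for Scnn1g, Scnn1a, Scnn1b, Tfcp2l1, Mal and Avpr2. For Scnn1g the log2 change was -0.011 when rescaled to equal sums and -0.0039 with quantile normalization, and it ranged from -0.13 to 0.15 when 1 library was left out. With pseudocount 0.1 and without wild-type library 3, Scnn1g, Scnn1a and Scnn1b lay at -0.14, -0.023 and -0.15. When 1 library was left out, the ranges were -0.015 to 0.17 for Scnn1a, -0.14 to 0.19 for Scnn1b, -0.13 to 0.051 for Tfcp2l1, -0.19 to 0.094 for Mal and -0.38 to 0.019 for Avpr2. The cause was not tested. Umod, Aqp2, Upk1a and Upk1b, below 2 FPKM in every library, rest on few fragments and are less precise than the abundant genes.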

Other observations

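Ratios of FPKM between genes of the set, formed within each library and chosen after their values were seen, are given as values without a test. The ratio of Upk3a to Upk1a was 3.75, 3.34 and 4.04 in knockout kidneys, against 8.14, 5.93 and 4.87 in wild-type kidneys, with no overlap. Upk1a rests on few fragments, so this ratio is imprecise. The ratio of Aqp3 to Aqp2 was 6.95, 9.32 and 9.72 in knockout kidneys, against 4.21, 5.33 and 6.92 in wild-type kidneys. The ratio of Slc12a1 to Epcam was 0.414, 0.331 and 0.344 in knockout kidneys, against 0.796, 0.629 and 0.391 in wild-type kidneys, with wild-type library 3 inside the knockout range. The ratio of Slc12a1 to Slc12a3 overlapped, at 14.2 to 16.8 in knockout and 12.6 to 18.4 in wild-type kidneys. Krt8 and Krt18 kept a ratio of 0.958 to 1.01 in knockout and 0.909 to 1.01 in wild-type kidneys.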
